A study of Mus musculus with 8 samples.

Results

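The collagen genes of the mouse were followed in white quadriceps muscle, which consists largely of fast glycolytic fibres, after an overnight fast. The members are all rows of the deposited RNA-seq table whose symbol is Col, a number, the letter a and a number, which gave 44 of 54091 rows. Of these, 36 had a mean of at least 10 normalized counts over the 8 libraries and were tested among 13141 genes, and 8 fell below that level. The rule used no measured value, although the members were chosen with earlier results of these data known.

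The groups were 4 Acot2 muscle knockout mice (replicates 5 to 8), labelled CKM Cre with Acot2 lost in muscle, and 4 floxed control mice (replicates 1 to 4), labelled Loxp/Loxp. All 8 were males of 11 to 14 weeks, and had gone without food for 14 h when their muscle was collected in the morning. CKM is the muscle creatine kinase promoter, which is active in muscle fibres and not in the connective tissue cells between them, and Acot2 encodes a mitochondrial enzyme that splits long-chain acyl-CoA. Mice with Cre alone were not analysed here, and effects of Cre and of Acot2 loss cannot be told apart. The libraries held 28659623 to 40977866 reads on genes. Acot2 had 413, 312, 600 and 543 normalized counts in knockouts 5 to 8, against 1675, 3927, 2492 and 1530 in floxed controls 1 to 4. The groups did not overlap (exact two-sided permutation p = 0.0286, the smallest that 4 mice against 4 allow; limma adjusted p = 0.087), although Acot1, a close paralogue, can share reads with Acot2. Myh4, the myosin of the fastest fibres and a marker of this tissue, stood at 1397870 to 2597330 normalized counts in knockouts and 2093810 to 2917700 in floxed controls.

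Collagens are triple helices of 3 chains, and each gene encodes 1 kind of chain. Fibrillar collagens form the cross-banded fibrils of the connective tissue sheaths, type IV chains form the sheet of the basement membrane around each fibre and capillary, and network collagens such as type VI tie that sheet to the fibrils. FACIT collagens, the fibril-associated collagens with interrupted triple helices, sit on the surface of fibrils or at junctions. In muscle most collagen RNA is made by fibroblasts of the connective tissue, with type IV also made by endothelial and other cells, so in whole muscle fewer cells of a type and less RNA per cell cannot be told apart.

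No collagen passed the test for a difference between knockouts and floxed controls, given the spread between mice. With limma and Benjamini-Hochberg adjustment, 0 of 36 collagens had an adjusted p under 0.05, against 0% of all genes tested, and the smallest adjusted p of a collagen was 0.746. With voom on the recovered reads the count was also 0. At an unadjusted p under 0.05 there were 2 of 36 collagens (5.56%), against 6.16% of all genes. Both were lower in the knockout, where the share over all genes was 3.7%. They were Col11a2, with an unadjusted p of 0.0338, and Col22a1, with 0.0459, and both had an adjusted p of 0.746 (limma). In 0 of 36 collagens did the 4 values of the groups stand apart, against 2.75% of all genes. The value was higher in 18 collagens and lower in 18, with a median difference of 0.01 (log2, knockout minus floxed control), against a median of 0.003 and 50.6% higher over all genes. All differences below are on the log2(normalized count + 1) scale, and the standard errors (SE) are limma's, for 4 mice in each group.

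**Figure D1:**
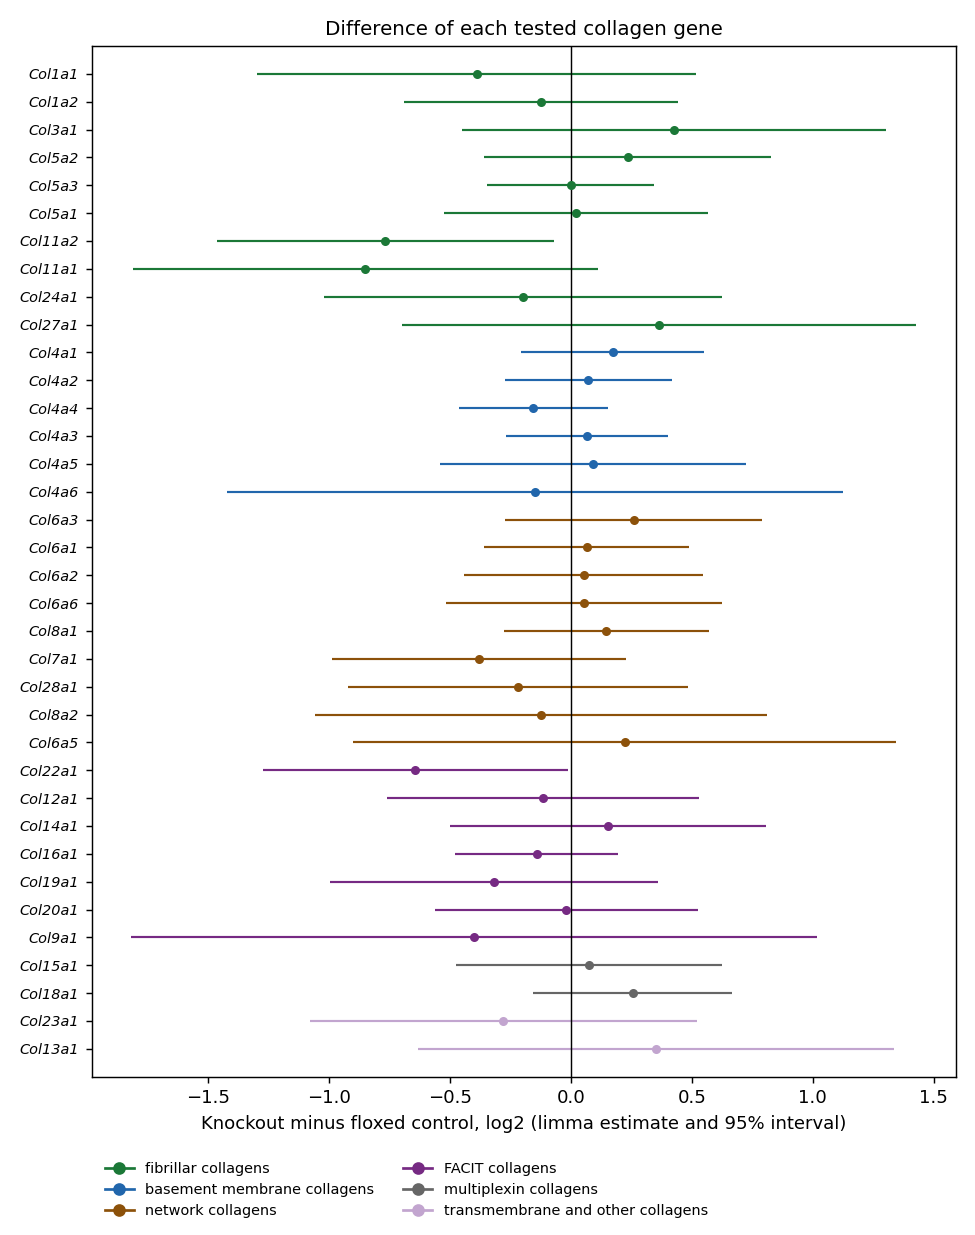
Difference of each of the 36 tested collagens between knockout and floxed control mice (log2, horizontal axis), with the limma estimate as a point and its 95% interval as a line, coloured by class. The estimates run from -0.85 (Col11a1) to 0.43 (Col3a1), and only the intervals of Col11a2 and Col22a1 lie on 1 side of 0, before any adjustment for 13141 genes.

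Collagens varied more between mice of 1 genotype than most genes did. The median SD over the 4 mice of a group was 0.569 in knockouts and 0.385 in floxed controls for the 36 collagens, against 0.233 in knockouts and 0.188 in floxed controls over all 13141 genes (log2). The median SE of a difference was 0.28 for collagens and 0.16 for all tested genes. Per length of transcript, the same 5 genes had the highest mean levels in both groups, in a different order. In knockouts they were Col3a1 (2118 ± 1856), Col1a2 (1824 ± 707), Col4a1 (1568 ± 479), Col1a1 (1540 ± 732) and Col4a2 (788 ± 218), in normalized counts per kilobase. In floxed controls they were Col1a1 (2028 ± 869), Col1a2 (1940 ± 510), Col4a1 (1354 ± 133), Col3a1 (1269 ± 203) and Col4a2 (732 ± 57.2; SD, n = 4 each). In each group the ranges of mean ± SD of the first 4 overlapped, and the knockout mean of Col3a1 was raised by a single mouse, knockout 6. Col1a1, Col1a2 and Col3a1 together made up 53.2% ± 6.20 (SD, n = 4) of the summed per-kilobase level of all collagens in knockouts and 55.4% ± 5.90 (SD, n = 4) in floxed controls. Col4a1 and Col4a2 together made up 24.9% ± 4.05 in knockouts and 22.9% ± 3.46 in floxed controls (SD, n = 4 each). The groups overlapped for both shares.

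The fibrillar class had 11 genes, of which 10 were tested. The value was higher in 4 and lower in 6, with a median difference of -0.06, and 1 (Col11a2) had an unadjusted p under 0.05. Col1a1 and Col1a2 encode the 2 chains of type I collagen, the main fibril of tendon and of muscle connective tissue. Col1a1 (chr11:94936224-94953042) had 11224, 14120, 6635 and 4543 normalized counts in knockouts 5 to 8, against 15433, 4807, 11856 and 16015 in floxed controls 1 to 4. Knockouts 7 and 8 and floxed control 2 were low, and the groups overlapped across most of their range (difference -0.39, SE 0.411). Leaving out knockout 8 gave -0.10, and leaving out floxed control 2 gave -0.78. The unadjusted limma p of Col1a1 was 0.364 with all mice and 0.0393 without floxed control 2. Col1a2 (chr6:4505618-4541543) had 10166, 14933, 7388 and 6536 normalized counts in knockouts, against 11745, 6928, 9624 and 13206 in floxed controls. The same mice were low, and the difference was -0.12 (SE 0.257).

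Col3a1 encodes type III collagen, which forms thin fibrils with type I in soft tissue. Col3a1 (chr1:45311538-45349706) had 7529, 27236, 5730 and 6642 normalized counts in knockouts, against 6269, 6029, 7493 and 8456 in floxed controls. Knockout 6 stood above every other mouse while the other 7 lay close together, and the difference was 0.43 (SE 0.398), or -0.09 without knockout 6. Col5a2 (chr1:45374331-45503282), a chain of type V collagen, which starts the fibrils and sets their width, lies next to Col3a1 on the other strand. It had 1621, 3894, 1388 and 1549 normalized counts in knockouts, against 1677, 1374, 1708 and 1802 in floxed controls (difference 0.23, SE 0.270). Again knockout 6 was the high mouse, and without it the value for Col5a2 was -0.11. For the 2 other type V chains the limma differences were 0.02 (SE 0.248) for Col5a1 and between -0.35 and 0.35 (95% interval) for Col5a3.

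The promoters of Col1a2 and Col3a1 are shown because both genes are abundant fibrillar chains. The 200 bases before the annotated start of each are from RefSeq (GRCm38.p6), both on the plus strand, with the letters CCAAT in capitals for Col1a2 and TATAAA in capitals for Col3a1.
Col1a2, chr6:4505418-4505617: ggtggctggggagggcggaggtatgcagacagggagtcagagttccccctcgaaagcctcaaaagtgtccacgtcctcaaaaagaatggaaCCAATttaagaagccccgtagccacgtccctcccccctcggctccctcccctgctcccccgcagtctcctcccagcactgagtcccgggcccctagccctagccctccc
Col3a1, chr1:45311338-45311537: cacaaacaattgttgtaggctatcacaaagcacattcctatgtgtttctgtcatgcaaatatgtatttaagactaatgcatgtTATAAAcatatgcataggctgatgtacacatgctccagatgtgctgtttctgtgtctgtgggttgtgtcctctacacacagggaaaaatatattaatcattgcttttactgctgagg
Of the 44 collagen genes, 35 matched RefSeq windows (38 windows), and each was searched over the 250 bases before its start on both strands. CCAAT or its reverse ATTGG stood in 13 of 38 collagen windows (34.2%), against 33.8% of all 32851 windows. TATAAA or its reverse TTTATA stood in 5 of 38 (13.2%), against 12.4%. A match describes the letters and is not a measured binding site.

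Type XI chains form the core of thin fibrils, mainly in cartilage and also in tendon, and had the largest fibrillar differences. Col11a2 (chr17:34038919-34066684) had 86.5, 111, 103 and 44.8 normalized counts in knockouts, against 155, 94.0, 121 and 216 in floxed controls. Knockouts 5 and 8 lay below every floxed control and knockouts 6 and 7 lay within their range (difference -0.77, SE 0.316). Its unadjusted limma p of 0.0338 passed 0.05 only while all of knockouts 5 and 8 and floxed controls 1 and 4 were kept, with 0.101 without knockout 8 and 0.107 without floxed control 4. Col11a1 (chr3:114030479-114220756) had 69.4, 79.5, 137 and 29.0 normalized counts in knockouts, against 188, 72.2, 101 and 174 in floxed controls. Knockouts 8 and 5 had the lowest values of the 8 mice, knockouts 6 and 7 lay within the floxed controls, and the difference was -0.85 (SE 0.437). Its unadjusted limma p was 0.0780 with all mice, 0.0163 without knockout 7 and 0.0323 without floxed control 2, and it was 0.0437 with a covariate for the range that a mouse number falls in and 0.0475 without a filter. The 2 remaining tested genes of the class were Col24a1, with a difference of -0.20 (SE 0.374), and Col27a1, with 0.36 (SE 0.483), at 5.21 to 68.6 normalized counts in single mice.

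All 6 basement membrane genes were tested, and their differences ran from -0.15 to 0.17, with 4 higher, 2 lower and a median of 0.07. None had an unadjusted p under 0.05. Col4a1 and Col4a2 encode the chains of the type IV collagen found in nearly every basement membrane. Col4a1 (chr8:11198423-11312889) had 9458, 15022, 7942 and 9058 normalized counts in knockouts, against 9035, 7784, 9916 and 9094 in floxed controls. Knockout 6 was the highest mouse and the other 7 overlapped (difference 0.17, SE 0.171). Col4a2 (chr8:11312805-11449287) had 4931, 7110, 4024 and 4253 normalized counts in knockouts, against 4840, 4173, 4974 and 4893 in floxed controls. The order was much the same, with a difference of 0.07 (SE 0.157).

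Col4a1 and Col4a2 lie head to head and kept nearly the same ratio in every mouse. The SD over the 8 mice was 0.294 for Col4a1 and 0.257 for Col4a2, but 0.079 for the log2 of their ratio. For Col4a3 and Col4a4, also head to head, it was 0.227 and 0.220, and 0.141 for the ratio. The ratio of Col6a1 to Col6a2, both on the minus strand, had an SD of 0.098. The 30 bases that hold both starts of Col4a1 and Col4a2 are shown, from RefSeq (GRCm38.p6, plus strand). The first base of each gene's transcript is in capitals, Col4a2 on the left and Col4a1, read on the other strand, on the right.
Col4a1 and Col4a2, chr8:11312801-11312830: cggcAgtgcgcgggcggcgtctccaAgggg
These 2 starts lie 21 bases apart. The annotated gene ranges overlap there on opposite strands, and the strand setting of the authors' counting is not given in the sources used here.

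Col4a3 and Col4a4 encode chains of the type IV collagen of kidney, lung and synapse, and were far scarcer than Col4a1 here. Per kilobase, the level of Col4a3 was 50.6 ± 7.49 normalized counts in knockouts and 48.5 ± 9.16 in floxed controls, where that of Col4a1 was 1568 ± 479 in knockouts and 1354 ± 133 in floxed controls (SD, n = 4 each). Col4a3 (chr1:82586921-82722059) had 486, 463, 341 and 443 normalized counts in knockouts, against 358, 366, 407 and 528 in floxed controls (difference 0.07, SE 0.152). Col4a4 (chr1:82448419-82587034) had 568, 544, 407 and 456 normalized counts in knockouts, against 468, 507, 557 and 666 in floxed controls (difference -0.15, SE 0.14). Each overlapped between the groups, and they lay on opposite sides of 0. The annotated Col4a4 gene range runs past the Col4a3 start, so these genes overlap on opposite strands. A Col4a4 transcript start lies further in, and the 71 bases from it to the start of the Col4a3 range are within the Col4a4 range. They are shown as the head-to-head counterpart of the pair above, from RefSeq (GRCm38.p6, minus strand), with no motif and so no capitals.
Col4a3 and Col4a4, chr1:82586850-82586920: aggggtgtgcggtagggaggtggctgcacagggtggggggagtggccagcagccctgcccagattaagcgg
The X-linked pair is spaced more widely, with 1275 bases between the gene ranges of Col4a6 and Col4a5. For Col4a1 and Col4a2 the distance was instead taken between transcript starts. Col4a5 had a difference of 0.09 (SE 0.287) and Col4a6 one of -0.15 (SE 0.578), with Col4a6 at 2.79 to 22.5 normalized counts in single mice.

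Network collagens numbered 11 genes, 9 of them tested. The value was higher in 6 and lower in 3, with a median of 0.05, and 0 had an unadjusted p under 0.05. Col6a1, Col6a2 and Col6a3 encode the chains of type VI collagen, whose loss causes muscular dystrophy in people and myopathy in mice. Col6a1 (chr10:76708792-76726044) had 1310, 1961, 1049 and 1035 normalized counts in knockouts, against 1025, 1148, 1356 and 1457 in floxed controls (difference 0.07, SE 0.193). Col6a2 (chr10:76595756-76623630) had 867, 1433, 744 and 611 normalized counts in knockouts, against 716, 763, 872 and 1026 in floxed controls (difference 0.05, SE 0.224). Col6a3 (chr1:90766860-90844001) had 1530, 2785, 1271 and 1219 normalized counts in knockouts, against 1085, 1177, 1714 and 1469 in floxed controls (difference 0.26, SE 0.241). In all 3 chains knockout 6 was highest, the other knockouts lay within or below the range of the floxed controls, and without knockout 6 the differences were -0.13 for Col6a1, -0.19 for Col6a2 and -0.01 for Col6a3.

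Col6a6 encodes a chain that can take the place of the Col6a3 product. Col6a6 (chr9:105689417-105828246) had 304, 281, 163 and 207 normalized counts in knockouts, against 148, 211, 231 and 343 in floxed controls (difference 0.05, SE 0.259). The highest and the lowest mouse were both floxed controls. Col7a1 makes the anchoring fibrils of skin. Col7a1 (chr9:108953586-108984875) had 177, 111, 129 and 61.7 normalized counts in knockouts, against 130, 140, 137 and 183 in floxed controls (difference -0.38, SE 0.276). Knockouts 6, 7 and 8 lay below every floxed control and knockout 5 near the top of their range. Without knockout 5 the Col7a1 difference was -0.60, and its unadjusted limma p was then 0.04, against 0.196 with all mice. Among the 4 other tested genes, Col8a1 and Col8a2, which form the hexagonal lattice of type VIII collagen, had differences of 0.15 (SE 0.193) and -0.12 (SE 0.424), and the values were -0.22 for Col28a1 and 0.22 for Col6a5.

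Of 9 FACIT genes, 7 were tested, with 1 higher and 6 lower in the knockout and a median of -0.14, and 1 had an unadjusted p under 0.05. That gene was Col22a1 (chr15:71795795-72150979), which marks the junction between muscle fibres and tendon. Col22a1 had 901, 615, 1209 and 453 normalized counts in knockouts, against 1394, 775, 1137 and 1477 in floxed controls. Knockouts 6 and 8 lay below every floxed control and knockouts 5 and 7 within their range (difference -0.64, SE 0.286). The unadjusted limma p of 0.0459 missed 0.05 without any one of knockouts 6 and 8 and floxed controls 1, 3 and 4, and the difference was -0.41 without knockout 8.

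Col12a1 and Col14a1 encode collagens that coat type I fibrils and limit their fusion. Col12a1 (chr9:79598987-79721141) had 603, 861, 607 and 304 normalized counts in knockouts, against 825, 494, 442 and 731 in floxed controls (difference -0.12, SE 0.293). Col14a1 (chr15:55307644-55520803) had 127, 367, 228 and 134 normalized counts in knockouts, against 160, 196, 150 and 199 in floxed controls (difference 0.15, SE 0.296). In both, the knockouts held the highest and the lowest mouse. Col16a1 (chr4:130047817-130099277) had 167, 193, 164 and 145 normalized counts in knockouts, against 197, 147, 180 and 217 in floxed controls (difference -0.14, SE 0.153). Col19a1 (chr1:24257683-24587922), needed for muscle formation in the mouse oesophagus, had 164, 163, 60.5 and 84.7 normalized counts in knockouts, against 109, 131, 133 and 174 in floxed controls (difference -0.32, SE 0.308). For Col19a1 the knockouts split, with mice 7 and 8 below every floxed control and mice 5 and 6 near the top. Col20a1 (difference -0.02, SE 0.247) and Col9a1 (difference -0.40, SE 0.644) complete the tested genes of the class.

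**Figure D2:**
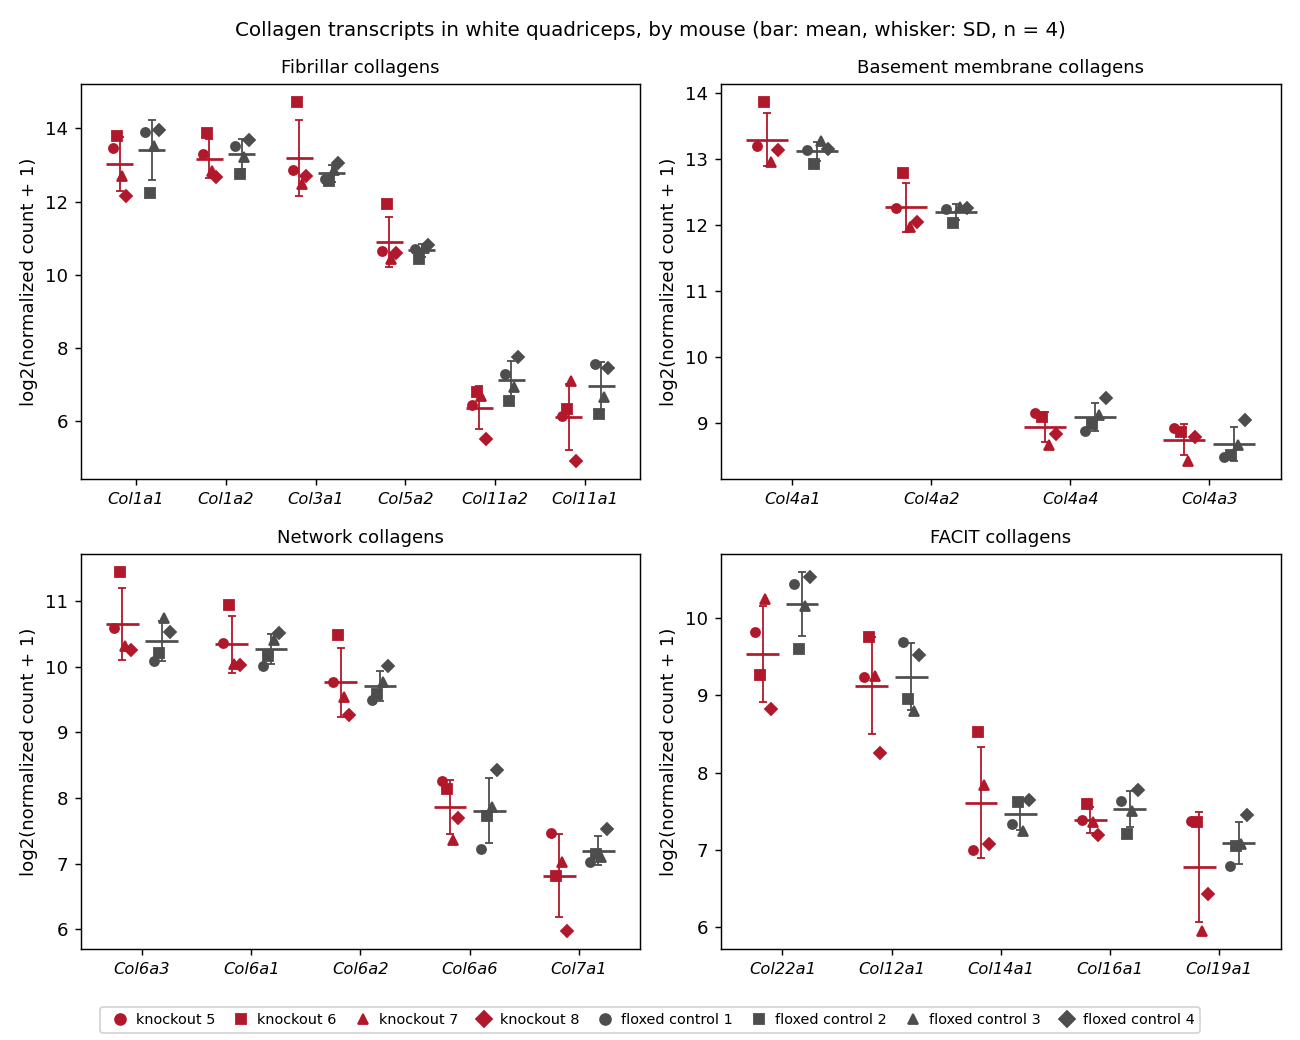
Levels of 20 collagens of the 4 main classes in each mouse (log2 of the normalized count + 1, vertical axis), knockouts in red on the left of each gene and floxed controls in grey on the right, with the mean and SD of 4 mice. Knockout 6 (square) is the top mouse for Col1a2, Col3a1, Col5a2, Col4a1, Col4a2, Col6a1, Col6a2, Col6a3, Col12a1 and Col14a1. Knockout 8 (diamond) is the lowest for Col1a1, Col1a2, Col11a1, Col11a2, Col6a2, Col7a1, Col22a1, Col12a1 and Col16a1. The groups overlap in all 20.

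Multiplexins are collagens of basement membrane zones that carry sugar chains. Col15a1 (chr4:47207655-47313167), which stabilizes muscle fibres and capillaries, had 545, 597, 401 and 281 normalized counts in knockouts, against 316, 357, 601 and 437 in floxed controls (difference 0.08, SE 0.250). Col18a1 (chr10:77052178-77166530), the source of endostatin, had 319, 447, 294 and 260 normalized counts in knockouts, against 278, 220, 350 and 251 in floxed controls (difference 0.25, SE 0.186). Both overlapped, with the highest mouse a floxed control for Col15a1 and a knockout for Col18a1. Of the 5 transmembrane and other collagens, 2 were tested, and both were scarce. Col13a1 (chr10:61838234-61979206), a transmembrane collagen of the neuromuscular junction, had 8.11, 19.6, 12.1 and 10.9 normalized counts in knockouts, against 13.9, 13.1, 6.26 and 6.22 in floxed controls (difference 0.35, SE 0.446). Col23a1 (chr11:51289679-51583925) had 33.4, 22.9, 35.4 and 13.3 normalized counts in knockouts, against 26.8, 22.6, 46.9 and 28.4 in floxed controls (difference -0.28, SE 0.363). The groups overlapped for both genes.

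The 8 genes below the filter held few reads. Col10a1, of growth plate cartilage, had 1 read in knockout 6 and 0 in the other 7 mice, and Col6a4 had 1 read each in knockout 6 and floxed control 4. Col2a1, the main cartilage collagen, had 9 reads over the knockouts and 29 over the floxed controls, and its partners Col9a2 and Col9a3 had 11 and 8 over the knockouts, against 16 and 6 over the floxed controls. Col17a1, of skin, had 26 reads over the knockouts and 21 over the floxed controls. The counts were 6 over the knockouts and 3 over the floxed controls for Col25a1, and 28 and 25 for Col26a1. At 3 reads, the limit that a count of 0 allows, a library could hold up to 2.61 to 3.63 normalized counts of a gene listed at 0, from counting error alone.

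Summed by class, the levels overlapped between the groups in every class. Fibrillar collagens summed to 35720 ± 19866 normalized counts in knockouts and 34059 ± 9105 in floxed controls (SD, n = 4 each). Basement membrane collagens summed to 16742 ± 4718 in knockouts and 14977 ± 1376 in floxed controls, and network collagens to 4636 ± 1587 in knockouts and 4159 ± 688 in floxed controls. The FACIT sum was 1967 ± 534 in knockouts and 2403 ± 517 in floxed controls. In the first 3 classes the SD was larger among the knockouts, where 1 mouse, knockout 6, had 64504, 23569 and 6884 normalized counts. Without knockout 6 the class medians were -0.21 for fibrillar, -0.06 for basement membrane, -0.13 for network and -0.25 for FACIT collagens. Without knockout 8 they were 0.06 for fibrillar, 0.09 for basement membrane, 0.22 for network and -0.08 for FACIT collagens.

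Counted mouse by mouse, knockout 6 had the highest value of the 8 mice in 14 of 36 collagens, while over all genes it was highest in 18.0%. Knockout 8 had the lowest in 16 of 36, where over all genes it was lowest in 12.9%, and it was highest in 0. Floxed control 4 was highest in 11 of 36, where over all genes it was highest in 12.8%. Knockouts 5 to 8 lay above a gene's own median over the 8 mice in 26, 27, 13 and 2 of 36 collagens, and floxed controls 1 to 4 in 15, 4, 24 and 33. Each genotype thus held mice with high and mice with low collagen levels. The classes did not always go together within a mouse. Floxed control 1 lay above the gene's median in 6 of 10 fibrillar and 5 of 7 FACIT genes, but in 1 of 6 basement membrane, 2 of 9 network and 0 of 2 multiplexin genes. Floxed control 3 lay above it in 7 of 10 fibrillar and 7 of 9 network genes, but in 3 of 7 FACIT genes. These counts describe single mice, and genes of 1 library are not independent of each other.

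**Figure D3:**
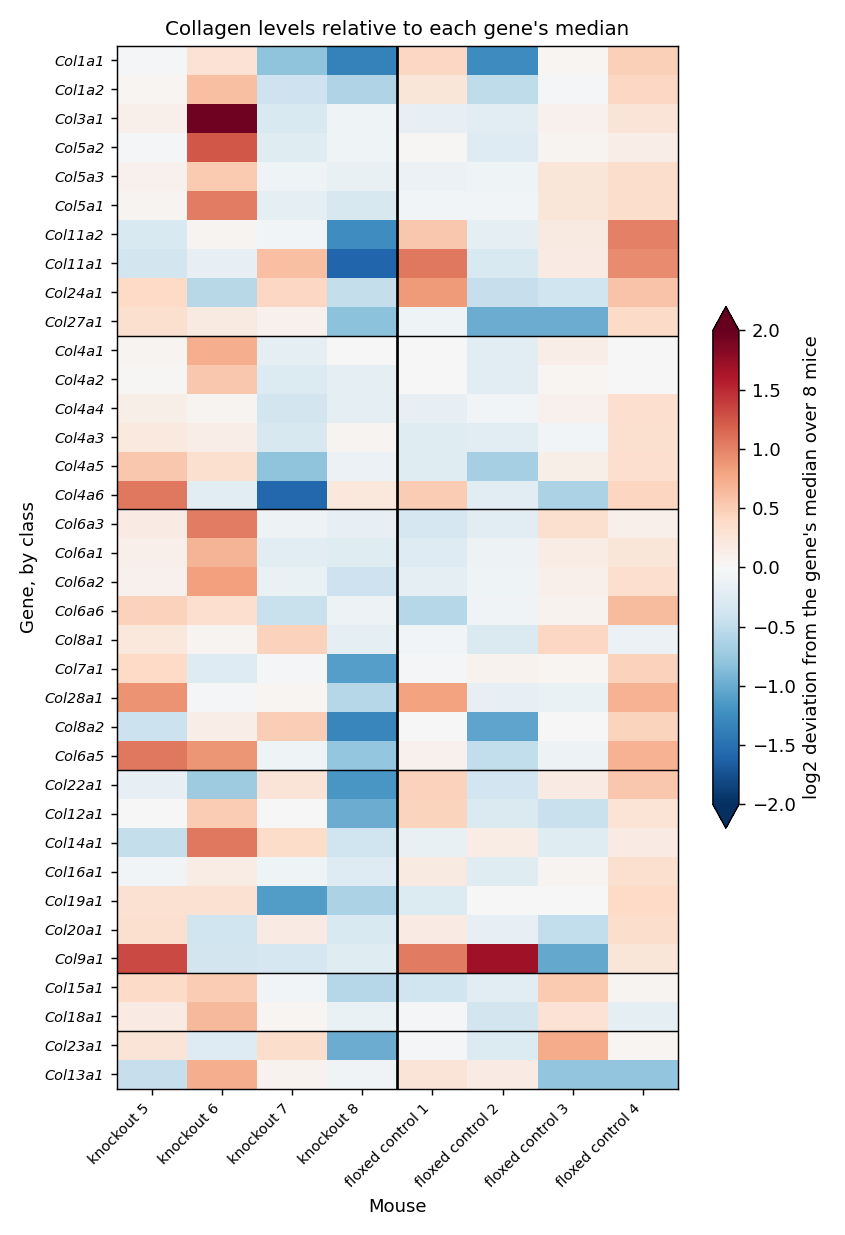
Level of each tested collagen in each mouse as its log2 deviation from the gene's median over the 8 mice (red above, blue below), with genes in rows by class, knockouts in the left 4 columns and floxed controls in the right 4. Knockout 6 and floxed control 4 are red for most genes, knockout 8 is above the median in only 2 of 36, and knockout 7 is the lowest mouse for 5 of the 6 basement membrane genes.

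Ratios of 2 chains within a mouse do not depend on the scaling between libraries. For 6 ratios the groups were compared with an exact permutation test (two-sided, 70 ways to assign 4 mice against 4), with Benjamini-Hochberg adjustment over the 6. The smallest p of this test is 0.0286, so 1 ratio alone could not pass the adjustment. The groups overlapped for all 6. The log2 ratio of Col1a1 to Col1a2 was -0.15 ± 0.28 in knockouts and 0.11 ± 0.43 in floxed controls (SD, n = 4 each; exact permutation p = 0.343, adjusted 0.411). The ratio of Col1a1 to Col3a1 was -0.18 ± 0.70 in knockouts and 0.64 ± 0.69 in floxed controls (exact permutation p = 0.143, adjusted 0.214). For Col4a1 to Col4a2 the ratio was 1.02 ± 0.07 in knockouts and 0.92 ± 0.05 in floxed controls (exact permutation p = 0.0857, adjusted 0.214). This was the steadiest of the 6 from mouse to mouse, with only 0.10 between the group means.

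For Col5a1 to Col5a2, 2 chains of 1 trimer, the log2 ratio was -0.73 ± 0.17 in knockouts and -0.52 ± 0.15 in floxed controls (exact permutation p = 0.143, adjusted 0.214). The ratio of Col6a1 to Col6a2 was 0.58 ± 0.14 in knockouts and 0.56 ± 0.06 in floxed controls (exact permutation p = 0.943). That of Col6a3 to Col6a1 was 0.31 ± 0.13 in knockouts and 0.12 ± 0.15 in floxed controls (exact permutation p = 0.114, adjusted 0.214). Its difference was 0.19 with all mice and ran from 0.13 to 0.27 when each mouse was left out in turn. Over the 8 mice the SD of the Col6a1 to Col6a2 ratio was 0.098, where it was 0.321 for Col6a1 and 0.376 for Col6a2.

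**Figure D4:**
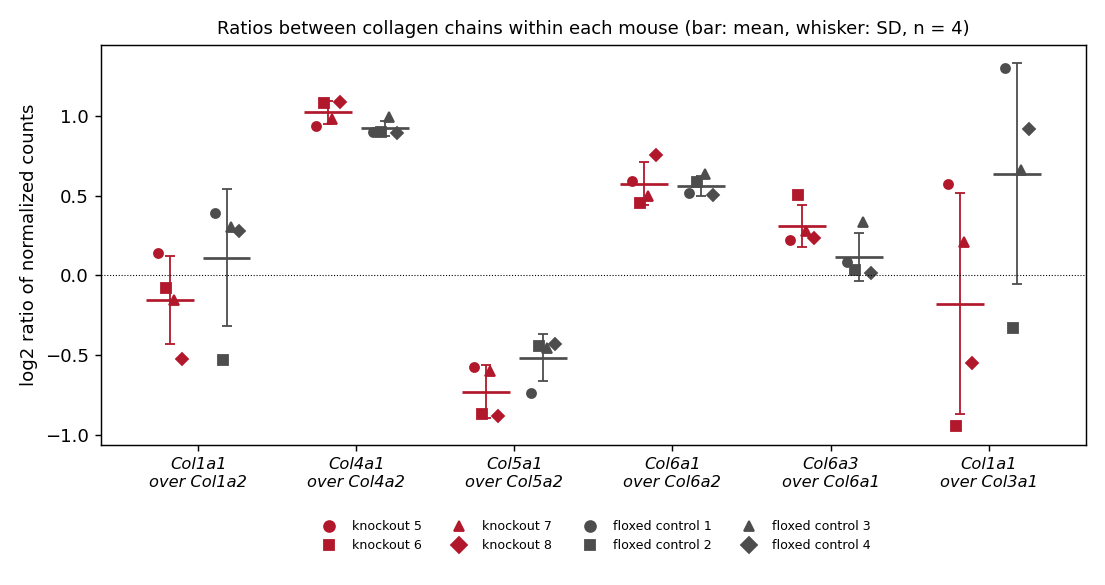
Log2 ratio of the normalized counts of 2 collagen chains in each mouse, for 6 pairs, knockouts in red and floxed controls in grey, with the mean and SD of 4 mice. The Col4a1 to Col4a2 ratio lies between 0.89 and 1.09 in all 8 mice, while the Col1a1 to Col3a1 ratio runs from -0.95 to 1.30.

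Genes that fold, export, cross-link, bind or break down collagen were followed through 6 lists, and 0 of their 81 tested members had an unadjusted p under 0.05, against 6.16% of all genes. In the list for folding and hydroxylation of the chains, 18 of 19 genes were tested, with 10 higher, 8 lower and a median of 0.02. Serpinh1, the collagen chaperone HSP47, had 606, 605, 523 and 479 normalized counts in knockouts, against 557, 483, 540 and 555 in floxed controls. Its values overlapped, as did those of the prolyl hydroxylase subunit P4ha1 (difference -0.01). Fkbp7, a prolyl isomerase of the endoplasmic reticulum, had 56.8, 70.8, 54.9 and 55.7 normalized counts in knockouts, against 46.1, 50.5, 49.0 and 42.7 in floxed controls. Here all 4 knockouts lay above every floxed control, as in 1.13% of all genes, with a difference of 0.33 (SE 0.188, limma adjusted p = 0.748).

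For export, cleavage and cross-linking, 14 of 15 genes were tested, with 8 higher, 6 lower and a median of 0.03. Lox, the enzyme that cross-links collagen fibrils, had 1914, 4653, 1903 and 3032 normalized counts in knockouts, against 2927, 2740, 1585 and 2359 in floxed controls (difference 0.19, SE 0.279). As for Col3a1, knockout 6 was the highest mouse, and it was highest for 7 of the 14 genes. Of the 15 genes for breakdown, 10 were tested, with 6 higher, 4 lower and a median of 0.06. Mmp2, a gelatinase, had 1100, 1210, 930 and 818 normalized counts in knockouts, against 1066, 927, 1020 and 1095 in floxed controls. These values overlapped, and the difference for the inhibitor Timp3 was 0.14. Of 10 tested receptors of collagen and laminin, 2 were higher and 8 lower, with a median of -0.11. Dag1, the dystroglycan that holds the fibre to laminin, differed by -0.15 (SE 0.103) and the collagen receptor gene Itga10 by -0.57 (SE 0.397).

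Of 18 tested TGF-beta ligands, receptors and targets, a pathway that drives collagen genes in fibroblasts, 7 were higher and 11 lower, with a median of -0.06. Postn, a matrix protein of repair, had 116, 788, 277 and 98.0 normalized counts in knockouts, against 142, 67.9, 153 and 111 in floxed controls (difference 0.98, SE 0.556). Knockout 6 was again the highest mouse and knockout 7 the next, while knockouts 5 and 8 lay within the floxed controls. For Tgfbr1, a receptor kinase, all 4 knockouts lay below every floxed control, as in 1.62% of all genes, with a difference of -0.10 (SE 0.066). Besides Fkbp7 and Tgfbr1, none of the 81 tested members of the 6 lists had groups that stood apart. Over all genes the groups stood apart in 2.75%, both directions together. Partners of type IV collagen in the basement membrane had 6 genes higher and 5 lower of 11 tested, with a median of 0.03. Lamb1, a laminin chain, had 1421, 1608, 1309 and 1211 normalized counts in knockouts, against 1092, 1003, 1390 and 1255 in floxed controls (difference 0.23, SE 0.121). Knockouts 5 and 6 lay above every floxed control and the rest overlapped.

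Markers of the cells that make collagen were read beside these values. Of 10 fibroblast markers, 9 were higher and 1 lower, with a median of 0.15, and 0 had an unadjusted p under 0.05. Their summed level ran from 44387 to 51875 normalized counts in knockouts and from 35584 to 49724 in floxed controls, and knockout 6 had the highest sum. Gsn alone held 34583 of the 51875 in knockout 6, so the sum mostly follows 1 gene. Floxed control 1, with the lowest fibroblast sum, had the second highest Col1a1. Of 9 tendon markers, 0 were higher and 9 lower, with a median of -0.44, and 0 had an unadjusted p under 0.05. The tendon sum ran from 3705 to 6859 in knockouts and from 4095 to 7111 in floxed controls. Thbs4 alone held 5359 of the 6859 in knockout 6. Knockout 8, lowest for Col22a1, Col11a1 and Col11a2 and for 16 of all 36 collagens, was lowest for 6 of the 9 tendon markers. Other mice did not all keep this order. Knockout 6 had a tendon sum of 6859 with Col22a1 at 615 normalized counts. Floxed control 3 had a tendon sum of 4095 with Col22a1 at 1137. Mkx, a tendon transcription factor, had 26.1, 14.2, 27.9 and 4.84 normalized counts in knockouts, against 61.1, 21.8, 20.9 and 35.5 in floxed controls (difference -1.01, SE 0.537). The part of tendon tissue in the lower values of Col22a1 and the type XI chains was not tested.

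**Figure D5:**
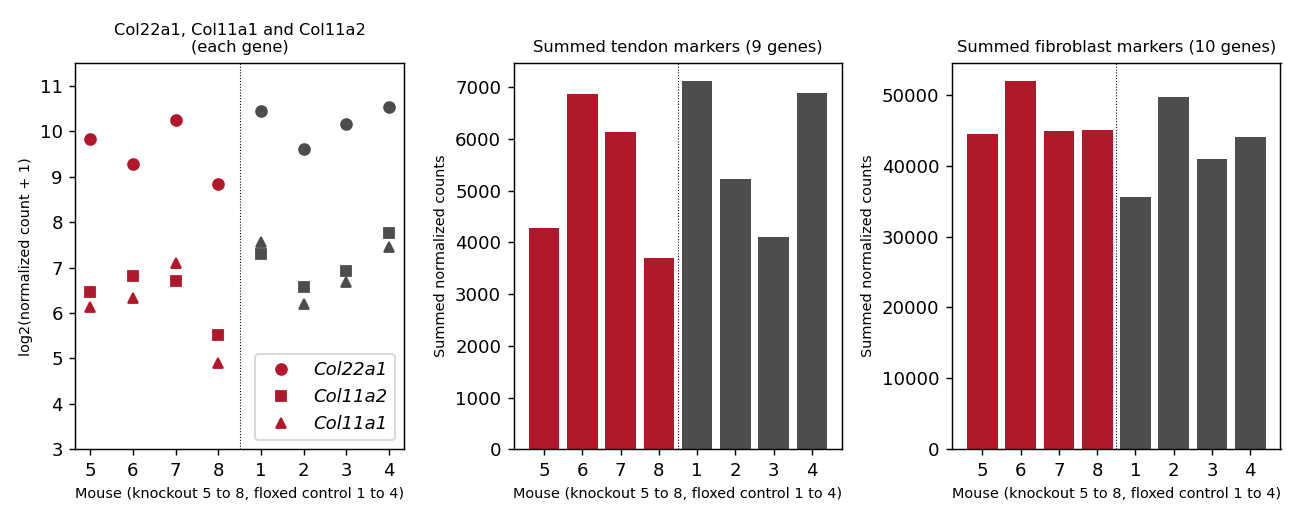
Left, levels of Col22a1, Col11a2 and Col11a1 in each mouse (log2 of the normalized count + 1); middle and right, summed normalized counts of 9 tendon and 10 fibroblast markers, knockouts 5 to 8 in red on the left and floxed controls 1 to 4 in grey. Knockout 8 has the lowest tendon sum (3705) and the lowest value of all 3 collagens, while its fibroblast sum (44999) lies within the range of the other knockouts. Knockout 6 has a tendon sum of 6859 but a lower Col22a1 than floxed control 3, whose tendon sum is 4095. Thbs4 makes up the largest part of the tendon sum and Gsn of the fibroblast sum.

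Markers of other cell types were read in the same way. Of 9 endothelial markers, 4 had an unadjusted p under 0.05, all higher in the knockout, where the share over all genes was 2.47%, and the sum ran from 9018 to 10737 normalized counts in knockouts and from 7832 to 9123 in floxed controls. Of 7 mural cell markers 2 were higher by that measure, of 6 macrophage markers 3 and of 5 Schwann cell markers 1, and 0 members of the satellite cell, adipocyte, muscle fibre and neuromuscular junction lists. By direction, 7 of the 9 endothelial markers were higher and 2 lower, and all 6 macrophage markers were higher. Among endothelial markers, all 4 knockouts lay above every floxed control for Flt1 and Pecam1, as in 1.13% of all genes. The same held for Adgre1 and C1qa among macrophage markers, and the groups overlapped for the other members of these lists. No member of any list had an adjusted p under 0.05 (limma, smallest 0.746). The macrophage sum ran from 1141 to 2157 in knockouts and from 686 to 1284 in floxed controls, and knockout 6 was highest for all 6 of these genes. The lowest sum was that of floxed control 1, at 686 against 1109 to 1284 in the other floxed controls, and this mouse was lowest for 5 of 6 macrophage, 8 of 10 fibroblast and 5 of 5 adipocyte markers. The part of these cell types in the collagen values of knockout 6 and floxed control 1 was not tested.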

How the data were processed

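White quadriceps RNA of 8 mice was sequenced. Per the labels' protocols, RNA came from a Norgen kit and libraries from a TruSeq Stranded kit. The tools in the submitters' processing notes are STAR, HTSeq, cutadapt, FastQC and DESeq2, with no versions, and the build is GRCm38. Which annotation and strand setting were counted is not given in the sources used here. Values were deposited as log2(n + 1), where n is a library's read count over its size factor. Of values up to 200 reads, 100% were within 0.1 read of a whole number.

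From these log2 values the genotypes were compared by limma 3.58.1 (R 4.3.3, lmFit and eBayes with a trend) over the 13141 genes whose normalized counts averaged 10 or more, with Benjamini-Hochberg adjustment. The pseudocount of 1 understates changes of low genes. Levels per kilobase divide by the longest GENCODE transcript. Positions of all 44 genes are from RefSeq (GRCm38.p6). The most alike pair of libraries, knockout 5 and floxed control 4, differed by 19.5 times the sampling noise, so none was counted as a duplicate. Knockout 5 differed from the floxed controls by 19.5 to 36.9 times that noise, and from the other knockouts by 85.4 to 144 times.

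The members and lists were chosen with earlier results of these data known. Collagens given by mouse are, per main class, the 4 with the highest mean and the 2 with the smallest p, and all tested multiplexins, transmembrane and other collagens. Myh4 was given as a marker of the tissue. Other list genes given are among the 2 of smallest p in their list, except Serpinh1, P4ha1, Lox, Mmp2, Postn, Tgfbr1, Pecam1, Gsn and Thbs4. These, the remaining collagens and the ratio of Col4a3 to Col4a4, were chosen after their values were seen. The test was tried on simulated data first. Titles number each mouse, so replicates were taken as separate animals. Alternatives covered the pseudocount, filters, 3 rescalings, robust and weighted fits, voom, a covariate for the range that the number in a title falls in, and leaving out libraries.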

Additional observations from a re-analysis of the deposited data

Results flagged for a closer look

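Of 106 groups of 4 mice examined (tested collagens, chain ratios, marker sums and Acot2 in each genotype), 8 had 1 mouse far from the other 3. Distance was the gap to the nearest mouse over the range of the 4, on log2 values, although counts are printed below. Chance gives about 1 in 20, or 5.3, which ignores that the groups share mice and genes. Col3a1 in knockout 6 was not among the 8, at 27236 normalized counts against 5730 to 7529 in the other knockouts. In the knockouts, Col5a2 in knockout 6 had 3894 normalized counts, with the others at 1388 to 1621, and Col9a1 in knockout 5 had 19.8, with the others at 5.45 to 6.05. Among floxed controls, Col4a2 in mouse 2 had 4173 normalized counts, with the others at 4840 to 4974. Among the log2 ratios, Col1a1 to Col1a2 in floxed control 2 was -0.53, with the others at 0.28 to 0.39. Col4a1 to Col4a2 in floxed control 3 was 1.00, with the others at 0.89 to 0.90. Col5a1 to Col5a2 in floxed control 1 was -0.74, with the others at -0.45 to -0.43. The fibroblast marker sum of knockout 6 was 51875 normalized counts, with the others at 44387 to 44999. Gsn alone had 34583 in knockout 6, with the others at 28254 to 29513. The endothelial marker sum of knockout 5 was 10737, with the others at 9018 to 9250.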

How the results depend on the processing

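Across 20 alternatives, 0 collagens reached an adjusted p of 0.05 with limma (lowest 0.272), and 656 of 712 collagen differences kept their direction. The signs of 15 of the 36 collagens held under every alternative run. The number of genes with an adjusted p under 0.05 was 1 (Acot2) without a filter. With an unadjusted p it was 1362 without a filter, 1467 with array weights and 1509 without floxed control 4 and knockout 5, against 810. Without 1 library it ran from 367 (without floxed control 4) to 2200 (without knockout 5). Without knockout 5 the groups stood apart in 2127 genes, against 362 with all mice. With libraries brought to 1 common total, 66.4% of those genes were higher, against 40% as deposited, and the median of all genes was 0.04. Collagens with an unadjusted p under 0.05 numbered 1 under the stricter filter of 50, total scaling, upper quartile scaling, robust eBayes and voom, 3 without a filter and with the covariate, 0 without floxed control 4 and knockout 5, and 0 to 4 without 1 library, against 2. The median of the transmembrane and other collagens was 0.35 without a filter. Without floxed control 4 and knockout 5, the Acot2 difference was -2.44 (exact permutation p = 0.1, the smallest that 3 against 3 allow) and the Col6a1 to Col6a2 ratio difference -0.012.

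Signs turned under array weights for Col15a1 (-0.042), Col4a5 (-0.022), Col5a1 (-0.032), Col6a2 (-0.0052) and Col6a6 (-0.017). They turned for Col20a1 under total scaling (0.023) and voom (0.0056). They turned for Col5a3 under total (0.041), TMM (0.0022) and upper quartile scaling (0.016) and voom (0.0021). Without floxed control 4 and knockout 5 they turned for Col5a3 (0.088), Col8a2 (0.13) and Col15a1 (-0.0036). The cause was not tested.

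Leaving out 1 library at a time turned the sign of 21 collagens, which ranged from -0.33 to 0.17 for Col12a1, -0.15 to 0.36 for Col14a1, -0.072 to 0.29 for Col15a1, -0.35 to 0.043 for Col1a2 and -0.17 to 0.11 for Col20a1. Ranges were -0.40 to 0.040 for Col24a1, -0.086 to 0.66 for Col3a1, -0.021 to 0.29 for Col4a1, -0.10 to 0.17 for Col4a2, -0.093 to 0.36 for Col4a5 and -0.54 to 0.33 for Col4a6. They were -0.27 to 0.17 for Col5a1, -0.11 to 0.39 for Col5a2, -0.14 to 0.083 for Col5a3, -0.13 to 0.17 for Col6a1, -0.19 to 0.22 for Col6a2 and -0.0066 to 0.39 for Col6a3. The rest were -0.042 to 0.57 for Col6a5, -0.14 to 0.26 for Col6a6, -0.43 to 0.22 for Col8a2 and -0.90 to 0.0032 for Col9a1. The ratio differences ranged from -0.048 to 0.055 for Col6a1 to Col6a2 and from 0.13 to 0.27 for Col6a3 to Col6a1.

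No paired analysis was possible because the labels state no pairing of knockout and floxed control mice. The planned edgeR and DESeq2 fits were not run, and voom on the recovered reads was. The median SE of a collagen difference was 0.28 with 4 mice per group, and genes under 10 normalized counts were not tested.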

Other observations

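The ratio of Col4a3 to Col4a4, 2 chains that are joined in 1 trimer, stood apart between the groups although neither chain did. Per length, it was 1.01, 1.01, 0.990 and 1.15 in knockouts 5 to 8, against 0.903, 0.853, 0.863 and 0.937 in floxed controls 1 to 4. All 4 knockouts lay above every floxed control, with a log2 difference of 0.22 (exact permutation p = 0.0286, the smallest possible). This was 1 of 11 chain pairs looked at, and adjusted over the 11 the p was 0.314. With 0.0286 the smallest possible p, 1 pair alone could not pass this correction, so the adjusted p decides nothing. The annotated ends of both genes overlap on opposite strands, and counting without strand would mix reads there.

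The ratio of Col3a1 to Col5a2 per length was 5.53, 8.33, 4.92 and 5.11 in knockouts, against 4.45, 5.22, 5.22 and 5.59 in floxed controls, so these neighbouring genes were both high in knockout 6, Col3a1 more so. The ratio of Col11a1 to Col11a2 was 0.688 ± 0.243 in knockouts and 0.714 ± 0.160 in floxed controls (SD, n = 4 each), and its groups overlapped.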
